A study of Mus musculus with 2 samples.

Results

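The insulin-like growth factor (IGF) genes were measured by single-cell RNA sequencing (scRNAseq) of the rib repair callus at 4 days post injury (4 dpi). The set held 10 genes, which were the ligands Igf1 and Igf2, the receptors Igf1r and Igf2r, and the binding proteins Igfbp2, Igfbp3, Igfbp4, Igfbp5, Igfbp6 and Igfbp7, out of 31054 genes in the deposited matrices. All 10 were found by symbol in both libraries. Control animals were Sox9:CreER;R26:tdT;Smof/+ and Smo cKO animals were Sox9:CreER;R26:tdT;Smof/f, so that both genotypes carried the Sox9-driven, tamoxifen-inducible Cre, the red reporter and at least 1 floxed Smo allele. Smo encodes the transducer of the Hedgehog signal, and the study asked how the early callus differs when cells of the Sox9+ lineage cannot receive that signal. Tamoxifen was given to young adult mice on several days before a large-scale rib resection. Recombination could reach only cells that were Sox9+ then and their descendants. Dissociated callus cells that passed a filter and dead-cell removal were sequenced, whether or not they were of that lineage. Calluses of 3 animals were pooled into 1 library per genotype, and adjacent skeletal muscle was mostly left behind at dissection.

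With 1 library per genotype there was no replicate check, so no p-value is given, and each interval below is a 95% interval for counting error only. Amplification was collapsed by unique molecular identifiers (UMIs), each of which stands for 1 captured transcript, and levels are given as CPM (the UMIs of a gene scaled to the total UMIs of a class, in the usual counts-per-million unit). A difference between the libraries cannot be told apart from a difference between the 2 pools of animals or between the 2 preparations. The control library held 10747 cell barcodes, of which 10057 passed the filters of at least 200 genes and under 10% mitochondrial UMIs, and the Smo cKO library held 10512, of which 9507 passed. Median depth of the kept cells was 8367 and 9092 UMIs. Smo itself, the targeted gene, was read in both libraries, with 1572 UMIs (19.2 CPM) in control and 951 UMIs (12.7 CPM) in Smo cKO connective cells, a log2 ratio of -0.60 (-0.72 to -0.49). Both levels were above 0, and the direction was that of the labels. Cells outside the Sox9+ lineage keep Smo, and the share of recombined cells was not measured here.

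The libraries shared 613 barcodes, 5.70% of those in control and 5.83% of those in Smo cKO. In 486 of them the smaller copy held under 5% of the UMIs of the larger one, with the smaller copy in control in 338 and in Smo cKO in 148. What the shared barcodes are was not tested, and ratios are also given without them where they moved.

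Cells were assigned to classes by the summed level of marker genes. Connective cells, gated on fibrillar collagens, Dcn, Lum, Pdgfra and similar genes, numbered 6395 in control (63.6% of kept cells) and 5031 in Smo cKO (52.9%), with median depths of 10811 and 13230 UMIs. Macrophages or monocytes numbered 1268 and 1736, dendritic cells 433 and 238, osteoclasts 267 and 171, muscle cells 220 and 440, neutrophils 83 and 116, and endothelial cells 63 and 62. Osteoclasts, dendritic cells, muscle cells and the other classes are named by their gate only. Connective cells held all 10 of their markers in at least 10% of cells in both libraries, though the gate chose them by these same markers. Macrophages, neutrophils, muscle cells and endothelial cells also held all of theirs. Dendritic cells held 4 of 8 in control and 5 of 8 in Smo cKO, and osteoclasts 5 of 6 in both. A further 886 control and 1039 Smo cKO cells passed no gate, and 280 and 361 passed the gates of more than 1 class and were set aside.

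IGF1 and IGF2 are secreted peptide hormones that drive growth of bone, cartilage and muscle, and IGF1 is stored in bone matrix and supports chondrocyte and osteoblast growth during repair. Both act mainly through the tyrosine kinase receptor encoded by Igf1r, whereas Igf2r encodes the mannose 6-phosphate receptor, which carries IGF2 to the lysosome. Binding proteins hold the ligands in plasma, at the cell surface or in the matrix, and proteases that cleave them set the ligand free. Hedgehog and IGF signals are both well known in the growth plate, where they act on chondrocyte proliferation.

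The genes lie apart in the mouse genome except for 1 pair. On GRCm38, Igf1 is at chr10:87858265-87937042 on the plus strand, and Igf2 is at chr7:142650766-142666816 on the minus strand, 72622 bases from the long noncoding RNA gene H19. Igf1r is at chr7:67952827-68233668 and Igf2r at chr17:12682406-12769664. Igfbp2 (chr1:72824503-72852474, plus strand) and Igfbp5 (chr1:72857932-72874884, minus strand) end 5457 bases apart with 0 protein-coding genes between them. Igfbp3 (chr11:7206086-7213923) and Igfbp4 (chr11:99041244-99054392) share a chromosome only, Igfbp6 is at chr15:102144362-102149511, and Igfbp7 is at chr5:77349240-77408041. Igf1, Igf2, Igf2r and Igfbp7 overlap other annotated genes (Igf1os, Igf2os, Airn and Polr2b among them), and since the strand setting of the counting is not given in the sources used here, reads from such partners may be among their counts.

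Promoters are shown for 4 binding proteins, as the 250 bases before a RefSeq start on GRCm38.p6, written 5′ to 3′ on the strand of the gene. Igfbp4 and Igfbp7 are the most abundant members and were both lower in Smo cKO connective cells, and Igfbp2 and Igfbp5 are the neighbors whose levels lay far apart. Capitals mark TATAAA (the TATA box) or GGGCGG (the GC box), in either orientation.
Igfbp4, chr11:99040994-99041243, plus strand: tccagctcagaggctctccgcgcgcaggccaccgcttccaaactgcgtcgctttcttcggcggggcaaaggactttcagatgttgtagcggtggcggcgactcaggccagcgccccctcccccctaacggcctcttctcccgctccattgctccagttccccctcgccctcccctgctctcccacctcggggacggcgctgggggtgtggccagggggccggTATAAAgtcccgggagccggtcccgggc
Igfbp7, chr5:77408046-77408295, minus strand: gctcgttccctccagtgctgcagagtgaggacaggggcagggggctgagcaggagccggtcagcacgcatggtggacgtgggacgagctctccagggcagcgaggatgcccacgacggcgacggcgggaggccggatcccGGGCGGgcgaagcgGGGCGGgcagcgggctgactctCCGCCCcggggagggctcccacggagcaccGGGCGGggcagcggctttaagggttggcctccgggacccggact
Igfbp2, chr1:72824230-72824479, plus strand: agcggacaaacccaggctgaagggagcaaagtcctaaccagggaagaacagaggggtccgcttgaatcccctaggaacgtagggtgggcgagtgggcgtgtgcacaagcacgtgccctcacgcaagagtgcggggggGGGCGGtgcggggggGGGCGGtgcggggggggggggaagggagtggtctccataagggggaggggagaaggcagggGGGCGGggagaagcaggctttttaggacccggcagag
Igfbp5, chr1:72874866-72875115, minus strand: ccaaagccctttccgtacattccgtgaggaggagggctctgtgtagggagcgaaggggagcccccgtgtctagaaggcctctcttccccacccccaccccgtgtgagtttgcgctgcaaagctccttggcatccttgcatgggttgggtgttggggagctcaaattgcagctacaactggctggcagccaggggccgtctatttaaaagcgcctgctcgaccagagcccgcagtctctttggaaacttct
Igfbp4 held 1 TATAAA, 28 bases before its start, and no GGGCGG, whereas Igfbp7 held 4 GGGCGG matches and no TATAAA. Igfbp2 held 3 GGGCGG matches at the start shown, and Igfbp5 held neither motif. Among 14 starts of the 10 genes, TATAAA was found at 2 (Igfbp4 and Igfbp6) and GGGCGG at 6, beside shares of 12.3% and 32.97% over 32536 mouse promoters of the same length. ACCACCCA, a core of the site bound by the GLI factors of the Hedgehog pathway, was in 0 of the 14 and in 1.27% of all promoters. No match says only that these letters are not in this window.

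**Figure D1:**
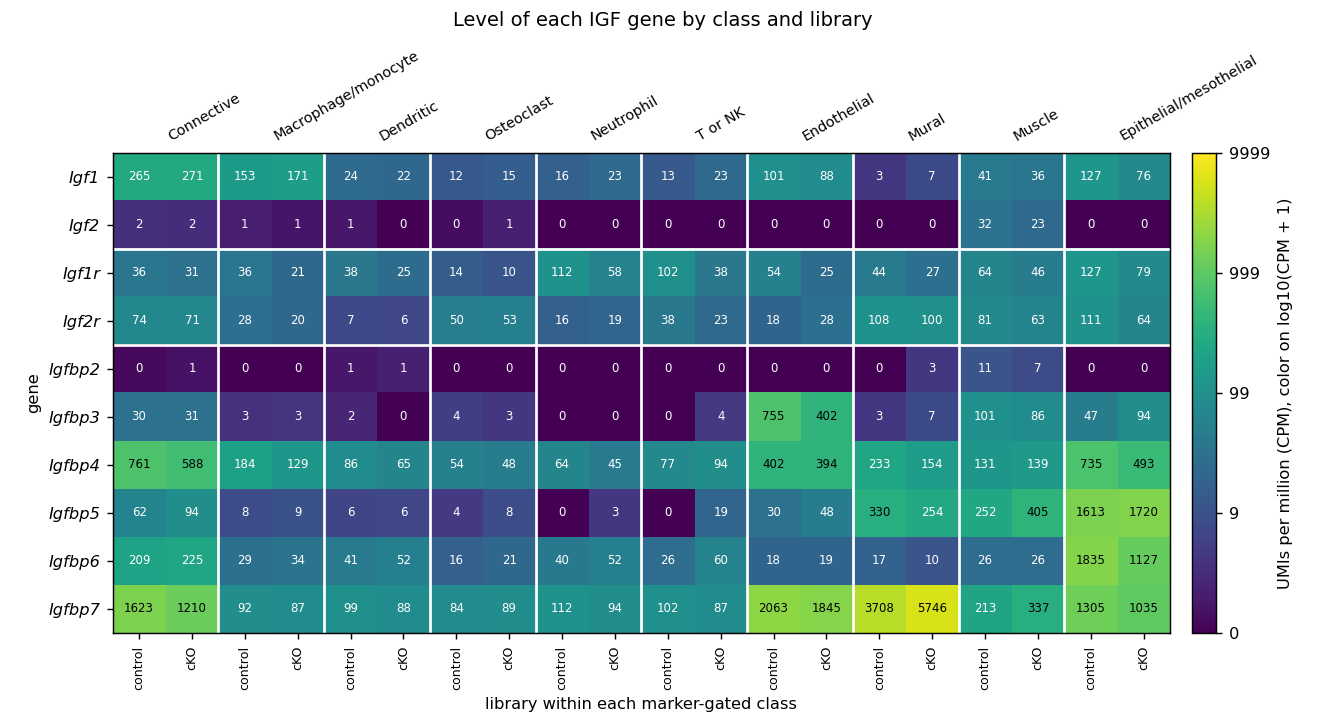
Level of each of the 10 IGF genes (rows) in each marker-gated class and library (columns), as CPM printed in each cell and on a log color scale. Igfbp7 and Igfbp4 were the most abundant members in connective cells (1623 and 761 CPM in control), Igfbp3 stood out in endothelial cells (755 and 402 CPM), and Igf2 was at 2.50 CPM or less in each plotted class but muscle.

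Among the ligands, Igf1 was abundant in the callus and Igf2 was not. Igf1 was at 265 CPM (21636 UMIs) in control and 271 CPM (20335 UMIs) in Smo cKO connective cells, where Igf2 was at 2.50 and 2.22 CPM. Connective cells gave 92.1% and 87.2% of all Igf1 UMIs, with 78.4% and 67.7% of all UMIs. Their Igf1 level differed by a log2 ratio of 0.03 (0.01 to 0.06), and a UMI of Igf1 was seen in 61.6% (60.4 to 62.8) of control and 63.6% (62.3 to 65.0) of Smo cKO cells. Connective cells of at least 5000 UMIs (5544 in control and 4379 in Smo cKO) were thinned to 5000 UMIs each. Shallower cells were left out, as in every thinned value below. Of the thinned cells, 50.0% and 51.4% had no Igf1 UMI, and the top 10% held 47.9% and 49.7% of its UMIs. Igf1 was thus spread unevenly over connective cells in both libraries.

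Macrophages were the class with the next highest Igf1, at 153 CPM (140 to 167) in control and 171 CPM (160 to 181) in Smo cKO. That was 57.7% and 63.0% of the connective level in the same library. The 10 connective markers together stood at 6.10% and 5.43% of their connective level in these macrophages, none of them at 0, and Igfbp7, the most abundant member in connective cells, stood at 5.66% and 7.21%. Osteoclasts (4.48% and 5.50%), dendritic cells (9.21% and 8.04%) and neutrophils (6.05% and 8.38%) had Igf1 near the percentage of the connective markers in the same cells (4.85% and 6.83%, 5.72% and 6.76%, and 6.80% and 7.06%), and no expression is read from them. Among the classes of at least 50 cells, endothelial cells came next, at 101 and 87.8 CPM, and muscle cells after them, at 41.3 and 35.5 CPM. Each of the first 3 steps in this order lay outside the counting intervals in both libraries. After thinning to 1000 UMIs per cell, 14.1% of control and 13.3% of Smo cKO macrophages had an Igf1 UMI, against 0.00% and 1.79% of T or NK cells, in which 2.33% and 5.00% had one before thinning. Before thinning the macrophage shares were 27.5% and 34.7%, at median depths of 2357 and 3106.5 UMIs, against 1473 and 1723.5 in T or NK cells. The macrophage ratio between the libraries was 0.16 (0.01 to 0.31) and turned to -0.10 in the thinned cells, so no direction is read from it.

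**Figure D2:**
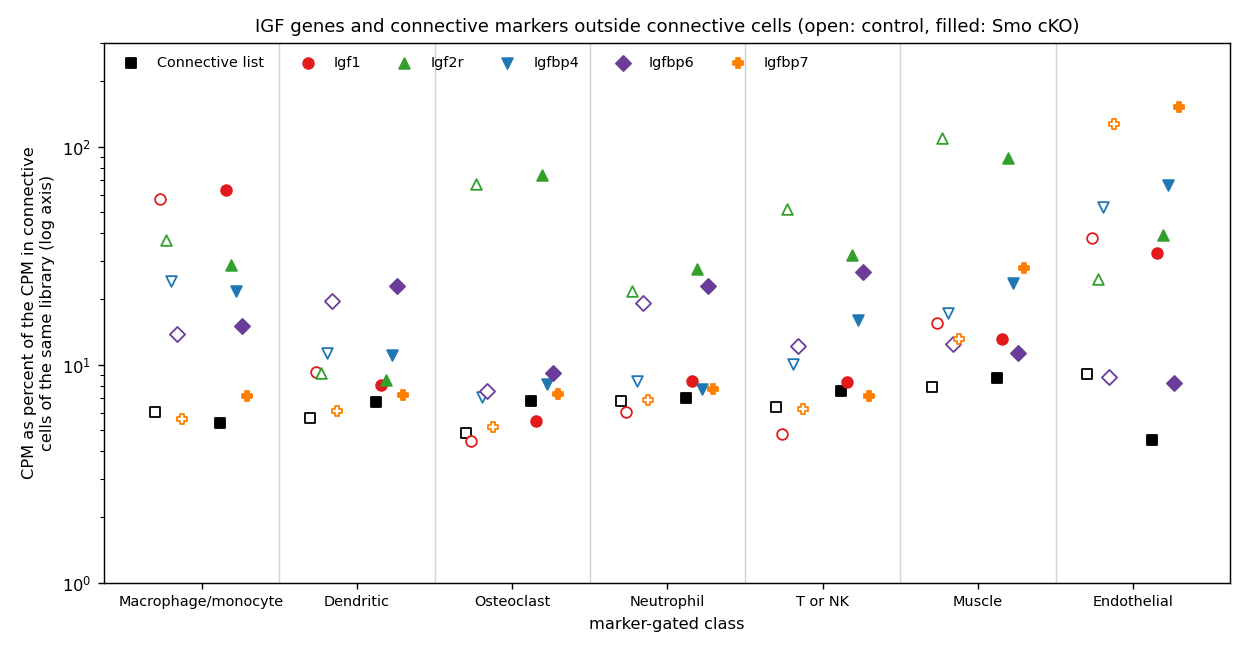
CPM outside connective cells as a percentage of the connective CPM in the same library, on a log axis, for IGF genes and for the summed connective markers (open symbols control, filled Smo cKO). Macrophage Igf1, at 57.7% and 63.0%, lay far above the marker sum at 6.10% and 5.43%, while macrophage Igfbp7 lay close to it.

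Igf2 was found in muscle cells, at 32.0 CPM (76 UMIs) in control and 22.6 CPM (120 UMIs) in Smo cKO, against the low connective level. Muscle cells held 22.6% and 32.6% of all Igf2 UMIs with 2.28% and 4.80% of all UMIs. The far larger connective class held more of them, 60.7% and 45.4%, with 78.4% and 67.7% of all UMIs. A UMI of Igf2 was seen in 26.4% (20.7 to 32.7) and 19.5% (15.9 to 23.6) of muscle cells, and the log2 ratio was -0.51 (-0.93 to -0.07). In endothelial cells, neutrophils and T or NK cells Igf2 had 0 UMIs in both libraries, where 3 UMIs would be 3.66 to 38.3 CPM. H19, the maternally expressed long noncoding RNA that neighbors the paternally expressed Igf2, stood at 1047 and 841 CPM in muscle and at 758 and 659 CPM in connective cells. Igf2 and H19 thus shared muscle as their highest class among those of at least 50 cells, but connective cells had H19 in plenty and little Igf2.

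Of the receptors, Igf2r was the more abundant in connective cells. Igf2r was at 73.8 CPM in control and 71.0 CPM in Smo cKO connective cells, at 80.9 and 63.1 CPM in muscle cells, and at 49.6 and 52.9 CPM in osteoclasts. In osteoclasts it was seen in 36.0% (30.2 to 42.0) and 41.5% (34.0 to 49.3) of cells. Osteoclast Igf2r came to 67.3% and 74.5% of the connective level, where the connective markers came to 4.85% and 6.83%. The protein sorts lysosomal enzymes as well as clearing IGF2. Macrophage Igf2r was lower, at 27.5 and 20.4 CPM, and dendritic cells had only 6.73 and 6.05 CPM.

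Igf1r, the signaling receptor, lay at 36.4 CPM (35.1 to 37.7) in control and 30.9 CPM (29.7 to 32.2) in Smo cKO connective cells, and at 64.5 and 46.4 CPM in muscle cells. Endothelial cells had 53.6 CPM (44 UMIs) and 25.3 CPM (19 UMIs), and macrophages 35.8 CPM (121 UMIs) and 20.6 CPM (124 UMIs). Among the classes of at least 50 cells, neutrophils were highest, at 112 CPM (14 UMIs) and 58.3 CPM (18 UMIs) with intervals that reached those of muscle cells, and osteoclasts were lowest, at 14.1 and 9.92 CPM. In all 4 of connective cells, macrophages, muscle and endothelial cells Igf1r was lower in Smo cKO, with log2 ratios of -0.23 (-0.31 to -0.15) in connective cells, -0.80 (-1.17 to -0.43) in macrophages, -0.47 (-0.77 to -0.17) in muscle cells and -1.08 (-1.94 to -0.28) in endothelial cells. Igf1r was also lower in Smo cKO in neutrophils, osteoclasts and dendritic cells (37.8 and 25.4 CPM), with overlapping intervals. The lower level was thus not limited to the 4 classes. In connective cells, where Igf1r counts were largest, 32.8% of control and 32.5% of Smo cKO cells had an Igf1r UMI, and 15.9% and 14.2% did at 5000 UMIs per cell. Muscle Igf1r came out at 0.09 when only cells with at most 2000 genes were kept.

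Among the classes of at least 50 cells, Igfbp4 and Igfbp6 were highest in connective cells. Igfbp3, Igfbp5, Igfbp2 and Igfbp7 were highest elsewhere, though Igfbp7 was also abundant in connective cells. Igfbp7, a low-affinity relative that is also a matrix protein of vessels, was the most abundant member. It stood at 1623 CPM (1614 to 1631) in control and 1210 CPM (1202 to 1218) in Smo cKO connective cells, a log2 ratio of -0.42 (-0.44 to -0.41). Endothelial cells had still more, at 2063 and 1845 CPM, a log2 ratio of -0.16 (-0.26 to -0.06) that was -0.04 without the shared barcodes. Muscle cells had less and ran the other way, at 213 CPM (505 UMIs) and 337 CPM (1793 UMIs), a log2 ratio of 0.66 (0.52 to 0.81). A UMI of Igfbp7 was seen in 96.6% and 97.1% of connective cells. At 5000 UMIs per cell, the median connective cell had 8 Igfbp7 UMIs (quartiles 5 and 11) in control and 6 (3 and 9) in Smo cKO, and 0.97% and 2.88% of cells had none. In cells of that depth the lower sum thus went with a shift of the whole distribution. Muscle Igfbp7 turned to -0.13 and endothelial Igfbp7 to 0.20 when classes were taken from clusters of cells.

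Igfbp4, which restrains IGF action until it is cleaved by the protease PAPP-A, was second, at 761 CPM (755 to 767) in control and 588 CPM (582 to 593) in Smo cKO connective cells. The log2 ratio was -0.37 (-0.39 to -0.35), and at 5000 UMIs per cell the median was 3 UMIs (quartiles 1 and 6) against 2 (1 and 5), with 11.9% and 16.1% of cells at none. Endothelial cells followed, at 402 and 394 CPM, with a log2 ratio of -0.03 that was -0.27 without the shared barcodes. Macrophages had 184 CPM (170 to 199) and 129 CPM (120 to 138), a log2 ratio of -0.52 (-0.67 to -0.36) and 24.2% and 21.9% of the connective level. Igfbp4 was lower in Smo cKO in connective cells and macrophages, and in muscle cells it was at 131 and 139 CPM (0.09).

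Igfbp6, which prefers IGF2 to IGF1, was at 209 CPM (206 to 212) in control and 225 CPM (222 to 229) in Smo cKO connective cells, a log2 ratio of 0.11 (0.08 to 0.14) that was 0.14 without the shared barcodes. It was first in connective cells and lay between 15.9 and 60.3 CPM in every other class of the 7 with at least 50 cells per library and in T or NK cells. Igfbp6 in macrophages stood at 13.9% and 15.1% of the connective level, above the 6.10% and 5.43% of the connective markers, and it stood as high or higher in dendritic cells (19.7% and 23.1%) and neutrophils (19.1% and 23.0%).

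Igfbp3, the main carrier of IGFs in plasma, was led by endothelial cells, at 755 CPM (619 UMIs) in control and 402 CPM (302 UMIs) in Smo cKO, a log2 ratio of -0.91 (-1.11 to -0.71). Only 46.0% (33.4 to 59.1) and 41.9% (29.5 to 55.2) of endothelial cells had a UMI of it, and with 63 and 62 cells these sums rest on 29 and 26 cells. The endothelial gate was also loose, with 18 control and 28 Smo cKO cells within 10% of its level. Without the shared barcodes the ratio was -0.71. Muscle cells had 101 and 85.9 CPM, and connective cells 29.98 and 31.28 CPM (0.06, -0.02 to 0.14). Endothelial cells gave 16.9% and 8.34% of all Igfbp3 UMIs from 0.787% and 0.678% of all UMIs. Under thinning to 1000 UMIs and under a limit of 2000 genes per cell the endothelial ratio came out at 0.19 and 2.71, so its direction is not settled by these cells.

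Igfbp5, which binds hydroxyapatite and matrix and is long studied in bone, was led by muscle cells among the larger classes, at 252 CPM (598 UMIs) in control and 405 CPM (2157 UMIs) in Smo cKO, a log2 ratio of 0.69 (0.55 to 0.82). Connective cells had 62.1 CPM (60.4 to 63.8) and 94.3 CPM (92.1 to 96.6), a log2 ratio of 0.60 (0.55 to 0.66). It was seen in 19.7% (18.7 to 20.7) of control and 26.1% (24.9 to 27.4) of Smo cKO connective cells, and at 5000 UMIs per cell 87.4% and 84.2% had none. The variance of its UMIs over cells was 7.93 times the mean in control and 54.8 times in Smo cKO, where Igfbp3, seen in a like share of these cells, had 2.22 and 2.20, so Igfbp5 was uneven among the cells that had it. Igfbp2, its neighbor on the chromosome and a binding protein of fetal tissues, was nearly absent from connective cells, at 0.26 CPM (21 UMIs) and 0.57 CPM (43 UMIs), and was at 10.5 and 7.14 CPM in muscle cells. Macrophages had 0 Igfbp2 UMIs in both libraries, where 3 UMIs would be 0.889 and 0.497 CPM. The neighbors Igfbp2 and Igfbp5 shared muscle as their highest class among those of at least 50 cells and lay over 10-fold apart in it.

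**Figure D3:**
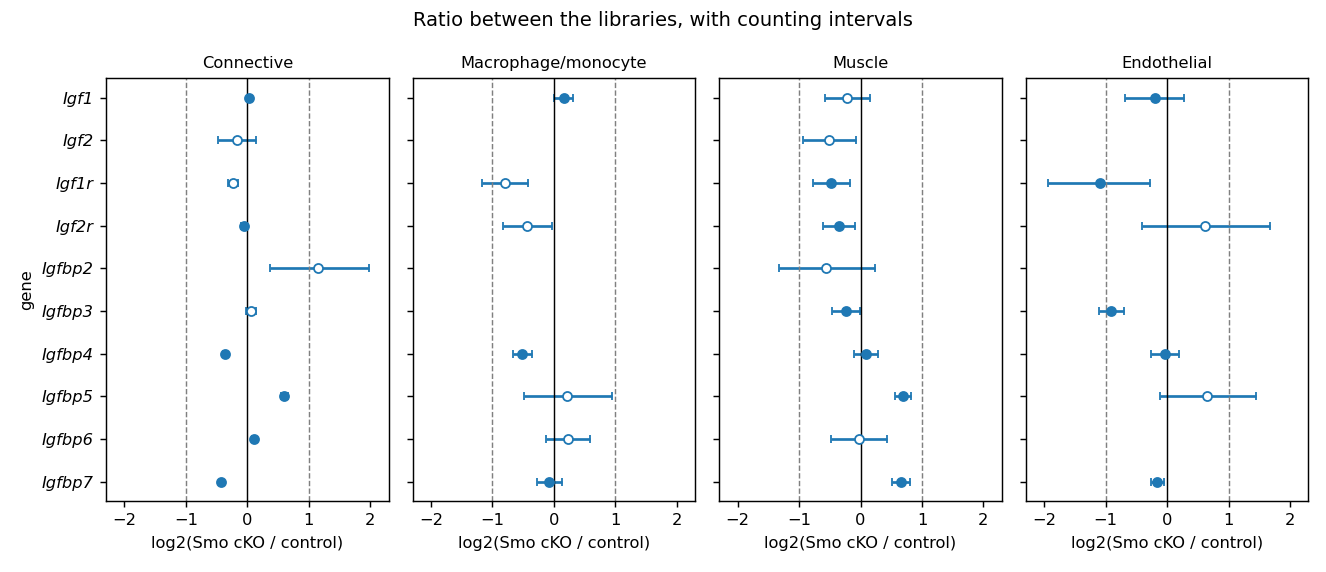
Log2 ratio of Smo cKO over control for each IGF gene (rows) in connective cells, macrophages, muscle cells and endothelial cells (panels), with 95% counting intervals as bars. Igfbp5 lay above 0 in connective (0.60) and muscle cells (0.69), Igfbp4 and Igfbp7 lay below 0 in connective cells (-0.37 and -0.42), and Igf1r lay below 0 in all 4 panels.

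The members were set beside all genes at 50 CPM or more in at least 1 of the libraries. In connective cells 0 of 6 members at that level were at least 2-fold apart, where 0.977% of 2559 genes were (median size of the log2 ratio over these genes 0.13), and 1 of 6 (Igfbp5, higher) was at least 1.5-fold apart, where 3.09% were. In macrophages 0 of 3 members were 2-fold or 1.5-fold apart, against 1.88% and 7.91% of 2502 genes. In muscle cells 0 of 6 were 2-fold apart against 1.35% of 2373 genes, and 2 of 6 (Igfbp5 and Igfbp7, both higher) were 1.5-fold apart against 6.15%. In endothelial cells 1 of 5 (Igf1r, lower) was 2-fold apart against 4.17% of 3020 genes, and 2 of 5 (Igf1r and Igfbp3, both lower) were 1.5-fold apart against 13.6%. The median log2 ratio of the members at that level was -0.01 in connective cells, -0.07 in macrophages, -0.07 in muscle cells and -0.20 in endothelial cells, beside medians over all such genes of 0.05, -0.05, 0.09 and -0.00. Counts out of 3 to 6 genes are a description of these libraries.

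Connective cells were then divided by the level of lists of state genes, each state being those of the 10% of connective cells of at least 5000 UMIs that were highest for its list over both libraries in which at least 2 genes of the list were seen. A state is therefore a range and not a cell type, a cell can be in more than 1, and 58 to 348 connective cells of a library lay within 10% of a limit. Igf1 was highest in the Sfrp4 Eln state (Sfrp4, Eln, Col14a1 and Ptx3), at 672 CPM (650 to 694) in control and 822 CPM (795 to 850) in Smo cKO. It was lowest in the Tnc Inhba state (Tnc, Inhba, Timp1 and Loxl2), at 38.3 CPM (34.6 to 42.4) and 62.2 CPM (57.1 to 67.7), a more than 10-fold span within 1 class. Tenocyte-list cells had 403 and 457 CPM, osteoblast-list cells 101 and 120 CPM, and proliferating cells 83.1 and 134 CPM. Igf1 was thus high in the Sfrp4 Eln and tenocyte states and low in the Tnc Inhba, proliferating and osteoblast states of both libraries.

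The near-equal Igf1 of the connective class hid differences of both directions within it. Igf1 was lower in Smo cKO in the adventitial state and higher in every other state. In cells in none of the states it was also lower, at 273 CPM in control and 249 CPM in Smo cKO, a log2 ratio of -0.14 (-0.17 to -0.10). In the adventitial state (Pi16, Dpp4, Cd34 and Sema3c, a fibroblast list of vessel sheaths) Igf1 was at 573 CPM (548 to 600) in control and 282 CPM (260 to 305) in Smo cKO, a log2 ratio of -1.02 (-1.16 to -0.89). In the skeletogenic state (Fmod, Acan, Col11a1, Sox9, Aspn and Ptn, genes of cartilage and its progenitors) it was at 281 CPM (267 to 295) and 487 CPM (471 to 503), a log2 ratio of 0.79 (0.70 to 0.88). Adventitial cells with an Igf1 UMI made up 86.6% in control and 60.0% in Smo cKO, and skeletogenic ones 69.6% and 79.9%. The adventitial state held 359 and 165 cells, and 170 and 122 connective cells lay within 10% of its limit. That limit was only 2.50 UMIs of the list per 10000, so membership rested on few UMIs per cell and the make-up of the state may differ between the libraries. Median depth was 8182 and 11044 UMIs in the adventitial and 11163.5 and 11721 in the skeletogenic state, and its part in these differences was not tested.

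**Figure D4:**
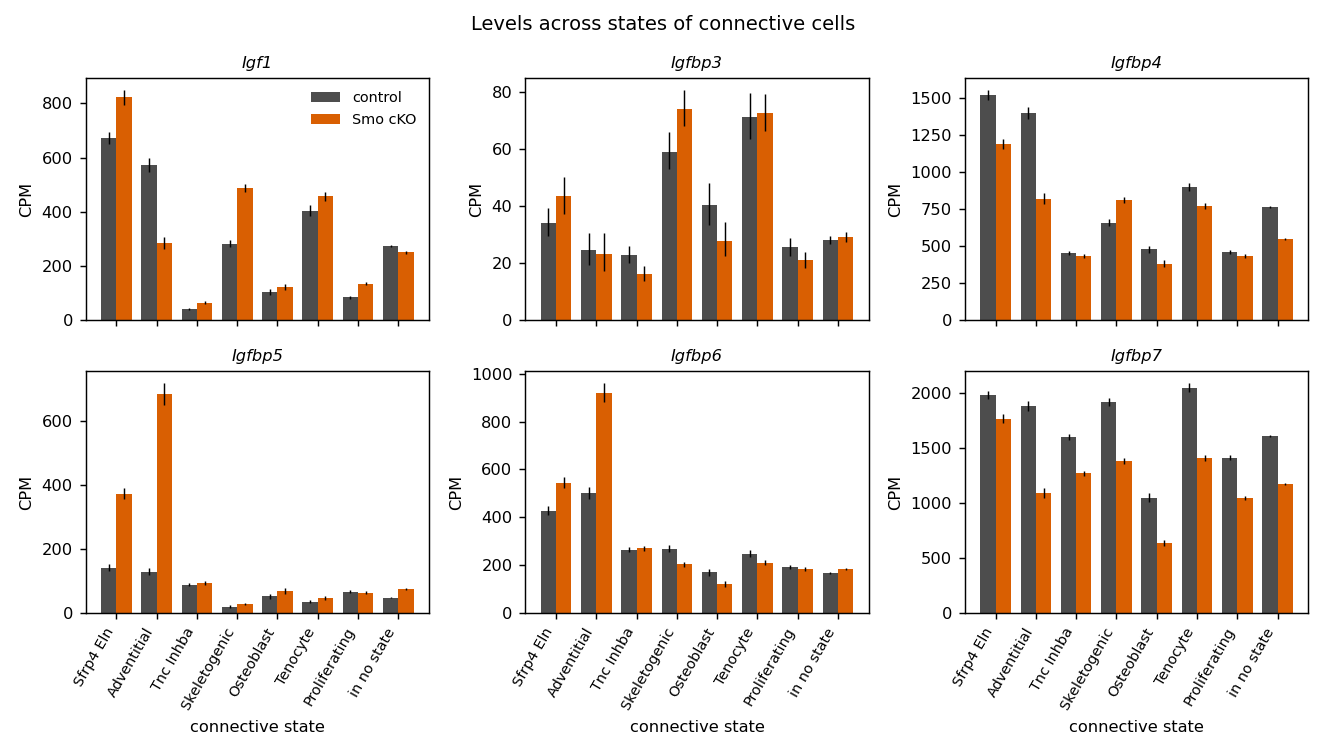
CPM of IGF genes across the states of connective cells (horizontal axis) in control and Smo cKO, with 95% counting intervals as bars. Igf1 ran from 38.3 CPM in the Tnc Inhba state to 672 CPM in the Sfrp4 Eln state of control, Igfbp4 ran with it, and Igfbp7 was lower in Smo cKO in every state.

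Igfbp4 took nearly the same order of states as Igf1. It was at 1518 and 1188 CPM in the Sfrp4 Eln state, at 1394 and 818 CPM in the adventitial state, and at 449 and 430 CPM in the Tnc Inhba state. The skeletogenic state ran against the class as a whole, with Igfbp4 at 656 CPM in control and 808 CPM in Smo cKO, a log2 ratio of 0.30 (0.24 to 0.36), and in the other 7 of the 8 sets Igfbp4 was lower in Smo cKO. Over the 7 states and the cells in none, Spearman's rho between Igf1 and Igfbp4 was 0.98 in control and 0.90 in Smo cKO, a description of 8 sets that share a library and of which some share cells. In single connective cells at 5000 UMIs, 47.7% of control cells had both Igf1 and Igfbp4, where the product of their shares gives 44.1%, and 44.4% of Smo cKO cells had both against 40.8%. Cells with Igf1 had Igfbp4 in 95.3% and 91.4%, and cells without Igf1 in 80.9% and 76.9%. Between Igf1 and Igf1r rho was -0.79 and -0.64 over the same 8 sets. Igf1r spanned a narrow range over them, however, from 30.3 to 40.9 CPM in control and from 25.8 to 37.1 CPM in Smo cKO. Cells with both Igf1 and Igf1r made up 7.31% and 6.51%, close to the 7.98% and 6.89% that the product gives.

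Igfbp7 varied less over states and was lower in Smo cKO in each of the 8 sets. Its control and Smo cKO levels were 2050 and 1409 CPM in the tenocyte state, 1916 and 1384 CPM in the skeletogenic state, 1881 and 1090 CPM in the adventitial state, and 1412 and 1043 CPM in the proliferating state. The osteoblast state (Bglap, Ibsp, Sp7 and others) was lowest, at 1049 and 637 CPM. Igfbp3 was highest in the tenocyte state, at 71.2 and 72.7 CPM, and in the skeletogenic state, at 59.2 and 74.3 CPM. Igfbp6 was at 427 and 544 CPM in the Sfrp4 Eln state and at 500 CPM (476 to 525) and 920 CPM (880 to 961) in the adventitial state. Among the states it was lowest in the osteoblast state, at 169 and 119 CPM, and cells in none of the states had 167 and 181 CPM. Within the adventitial state, then, whose membership rested on few UMIs per cell, Igf1, Igfbp4 and Igfbp7 were lower and Igfbp6 was higher in Smo cKO.

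A small number of cells carried much of the connective Igfbp5 in Smo cKO. Connective cells with at least 50 Igfbp5 UMIs, a limit chosen after the values were seen, numbered 4 in control and 13 in Smo cKO. They held 264 of 5073 Igfbp5 UMIs (5.20%) in control and 1710 of 7083 (24.1%) in Smo cKO, and the highest cell had 82 UMIs in control and 437 in Smo cKO. Without these cells the levels were 58.9 and 71.8 CPM and the log2 ratio was 0.29 (0.23 to 0.34), which is 1.22-fold and no longer past 1.5-fold. The 13 cells of Smo cKO had 9.38 UMIs of the adventitial list per 10000, against 0.86 in the other connective cells, while the 4 control cells had 0.45 against 1.19. Their Igfbp6 was 1646 CPM in Smo cKO, against 221 CPM in the others. UMIs of the epithelial or mesothelial list, a class that had Igfbp5 at 1613 and 1720 CPM over 12 and 25 cells, were at 0 in them, none had a shared barcode, and their total depths ran from 4612 to 33551 UMIs in Smo cKO. Muscle cells and mural cells (pericytes and smooth muscle of vessels) also had more Igfbp5 than connective cells. The 4 control cells had 2.97 UMIs of the muscle list and 1.68 of the mural list per 10000, and the 13 Smo cKO cells had 0.30 and 0.22. Connective cells that also passed the epithelial or mesothelial, muscle or mural gate had been set aside. Low levels of these lists thus follow in part from the gate, and what the cells are was not tested.

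**Figure D5:**
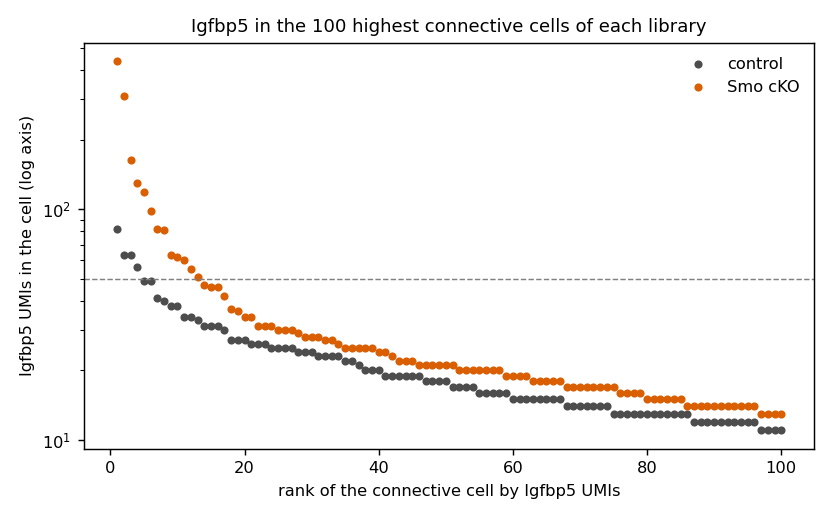
Igfbp5 UMIs (log axis) in the 100 connective cells of each library with the most, in order of rank, with a dashed line at 50 UMIs. In Smo cKO 13 cells lay at or above the line, up to 437 UMIs, and in control 4 did, up to 82 UMIs.

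The same cells weighed on the states. Adventitial Igfbp5 was at 129 CPM in control and 684 CPM in Smo cKO, and 5 of the 13 cells were in it. Without them the Smo cKO level was 197 CPM and the log2 ratio 0.61 (0.41 to 0.81), so the direction held there. In the Sfrp4 Eln state, Igfbp5 was at 141 and 373 CPM, and 5 such cells were also found. Without them the Smo cKO level was 123 CPM and the ratio -0.20 (-0.37 to -0.04). Control had 0 such cells in either state, so only Smo cKO lost cells. Its ratios could then only fall, and no reversal is read from the Sfrp4 Eln value. A UMI of Igfbp5 was seen in 25.1% of control and 53.9% of Smo cKO adventitial cells. In single connective cells at 5000 UMIs, Igfbp5 and Igfbp6 were found together in 7.59% of control and 10.1% of Smo cKO cells, where the product of their shares gives 6.55% and 8.13%.

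Macrophages of at least 1000 UMIs were divided in the same way, at the highest 25%. Igf1 was highest in the Ccl8 Mrc1 state, named for genes of resident-type macrophages, at 262 CPM in control (240 cells) and 282 CPM in Smo cKO (279 cells). It was at 186 and 208 CPM in the Arg1 Spp1 state, named for genes of repair-associated macrophages (193 and 487 cells), and at 111 and 123 CPM in macrophages in neither. The intervals of all 3 ratios between the libraries included 0. Igfbp4 showed the same high state, at 346 and 256 CPM in Ccl8 Mrc1 cells, and was at 120 and 76.3 CPM in Arg1 Spp1 cells and 148 and 116 CPM in the rest. Its ratio was below 0 in each, at -0.43 (-0.70 to -0.17), -0.66 (-1.08 to -0.23) and -0.36 (-0.57 to -0.14).

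Muscle cells of at least 5000 UMIs were divided at the highest 25%. In control, Igfbp5 was highest in cells high for a progenitor list and Igf2 in cells high for a differentiation list. Cells high for the progenitor list (Pax7, Myf5, Cdh15 and Chodl, genes of satellite cells) had Igfbp5 at 562 CPM in control and 887 CPM in Smo cKO, and those high for the differentiation list (Myog, Mymk, Actc1 and others) had it at 47.4 and 23.3 CPM. Igf2 was at 21.2 and 24.9 CPM in the progenitor state and at 54.4 and 33.3 CPM in the differentiating state. In cells of neither state Igf2 was at 23.8 and 16.7 CPM, so the progenitor state was not set apart by low Igf2. Igfbp7 went with the progenitor state too, at 460 and 578 CPM against 66.7 and 87.3 CPM, and so did Igfbp3, at 189 and 159 CPM against 8.78 and 29.1 CPM. The progenitor state held 38 and 95 cells and the differentiating state 45 and 95. The higher Igfbp5 of muscle cells in Smo cKO was seen in progenitor cells (0.66, 0.45 to 0.87) and in cells of neither state (0.44, 0.25 to 0.63), and in differentiating cells the ratio was -1.03 (-1.84 to -0.21).

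Other genes of the IGF pathway were read from a list of 27. At the 50 CPM level, 0 of 5 in connective cells, 0 of 5 in macrophages and 0 of 4 in muscle cells were 2-fold apart, beside the 0.977%, 1.88% and 1.35% of all genes. In endothelial cells 2 of 8 were, against 4.17%, of which Shc1 was named after its values were seen. These were Stc1, a secreted inhibitor of PAPP-A, at 36.6 and 74.5 CPM (30 and 56 UMIs), and the adaptor Shc1, at 24.4 and 55.9 CPM (20 and 42 UMIs). In connective cells Pappa, the gene of the protease that cleaves IGFBP4, was at 44.9 CPM in control and 46.0 CPM in Smo cKO, and its inhibitors Stc1 and Stc2 were at 2.90 and 3.74 CPM and at 3.32 and 2.85 CPM. Pappa was thus read in the same class as Igfbp4 in both libraries, while macrophages had 1.78 and 2.65 CPM of it. Downstream of the receptor, the docking genes Irs1 (15.6 and 15.6 CPM) and Irs2 (41.0 and 33.7 CPM), the insulin receptor Insr (8.33 and 7.11 CPM) and the inhibitory adaptor Grb10 (197 and 184 CPM) were read in connective cells. Irs2 rather than Irs1 was the docking gene of macrophages, at 59.2 and 46.8 CPM against 3.85 and 1.49 CPM.

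For each member that reached 50 CPM, the genes most like it across the 7 larger classes in both libraries were found by Pearson's r of log2(CPM + 10), over 14 values that come from only 2 libraries. Among 4776 genes Igf1 was nearest to Rnase4 (0.957), Igf1r to Ube2b (0.871) and Igf2r to Ptgfrn (0.904). The binding proteins were compared in the same way. Igfbp3 was nearest to Arhgap29 (0.991) and the tight junction gene Tjp1 (0.984), and Igfbp7 to Pxdn (0.990), Nid1 (0.988) and Lamb1 (0.982), which encode parts of the basement membrane or act on it. Igfbp4 was nearest to Scd2 (0.957) and to the fibronectin gene Fn1 (0.954), Igfbp5 to Tshz3 (0.983) and Snai2 (0.976), and Igfbp6 to Dpt (0.946), a gene of the fibroblast matrix, and Angptl1 (0.944). Igf2 and Igfbp2 did not reach the level needed for this comparison.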

How the data were processed

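The authors dissociated rib calluses, removed dead cells and built 10x Chromium libraries, which were processed with Cell Ranger 3.0.2 against mm10 per the labels. The deposited values are whole-number UMI counts per gene and cell, not normalized, and the strand setting is not given in the sources used here. Cells with at least 200 genes and under 10% mitochondrial UMIs were kept. The study also set an upper limit of 2000 genes, which was tried as an alternative. A cell entered a class when at least 3 of its markers were seen and their summed level per 10000 UMIs passed the level of the gate, and gate levels were set after marker levels were seen. A cell that passed more than 1 gate was set aside or, among the myeloid classes, given to the class farthest above its gate. No doublet caller was run.

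CPM intervals are exact Poisson, shares have Clopper-Pearson intervals, and ratios have exact conditional intervals, all at 95% and for counting error only. Ratios are given for classes of at least 50 cells per library, and the fold comparison used genes at 50 CPM or more in at least 1 library. A count of 0 was read against a floor of 3 UMIs. Cells below a thinning depth were left out of the thinned values. The members and lists were chosen with earlier results of these data known. The genes to be named were the 10 members, 8 preset pathway genes, any pathway gene 2-fold apart in connective cells (there were 0), and the 3 genes most like each member, of which some are printed. Shc1 in endothelial cells and Akt1 in macrophages fall outside this rule and were named after their values were seen. The limit of 50 Igfbp5 UMIs and the runs without shared barcodes were added after seeing the data. Positions come from GENCODE on GRCm38 and promoters from RefSeq on GRCm38.p6. The fold rule was tried only on simulated class sums with counting error. Those held changes larger than 2-fold and no spread between cells, animals or libraries, so they do not test the rule for such spread. Python 3.11.15, numpy 2.4.6, scipy 1.17.1, pandas 2.3.3, scanpy 1.11.5, matplotlib 3.10.9 and R 4.3.3 were used, with edgeR 4.0.16 and DESeq2 1.42.0 for scaling factors only.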

Additional observations from a re-analysis of the deposited data

Results flagged for a closer look

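Igfbp7 differed between the libraries in opposite directions in different classes. The log2 ratio of Smo cKO over control was -0.42 in connective cells and -0.16 in endothelial cells, and 0.66 in muscle cells. With classes taken from clusters of cells muscle Igfbp7 was at -0.13 and endothelial Igfbp7 at 0.20, and endothelial Igfbp7 was at -0.04 without the shared barcodes, so the directions in these 2 classes depend on how cells are chosen. The difference between classes was not tested, since each class is 1 pool of cells per library.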

How the results depend on the processing

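No paired analysis was possible because each genotype has 1 library, and for the same reason leaving out a library was not possible. The count of members 2-fold apart in connective cells was 0 of 6. With at most 2000 genes per cell (1567 and 888 cells left) and with classes from clusters it was 1 of 6 (Igfbp5). Without a minimum level it was 1 of 10 (Igfbp2), and at 1.5-fold 1 of 6 (Igfbp5). In muscle cells the count was 0 of 6. With at most 2000 genes (91 and 134 cells left) it was 1 of 5 (Igfbp5). After thinning to 1000 UMIs it was 3 of 7 (Igf2, Igf1r and Igfbp5), and at 1.5-fold 2 of 6. In endothelial cells it went from 1 of 5 (Igf1r) to 2 of 5 at 1.5-fold. Endothelial Igfbp3 was at 2.71 with at most 2000 genes, so the member counted may differ between settings. Endothelial Igf1r (44 and 19 UMIs) had too few UMIs to be among the ratios followed below. Apart from the 1.5-fold setting, the share over all genes was not taken under these settings. No result about the members is therefore read from these counts. Pathway genes past 1.5-fold numbered 1 of 5 in macrophages (Akt1), where 7.91% of all genes were. In endothelial cells they numbered 4 of 8, where 13.6% of all genes were. Directions turned for connective Igf1 (-0.0202 with median ratio scaling), macrophage Igf1 (-0.10 thinned), muscle Igf1r (0.0943 at most 2000 genes), muscle Igf2r (0.0770 thinned), muscle and endothelial Igfbp7 (-0.13 and 0.20 with clusters) and endothelial Igfbp3 (2.71 at most 2000 genes, 0.19 thinned). The cause was not tested. Connective Igfbp5 was 1.35 at most 2000 genes, 1.13 with clusters, 0.91 thinned and 0.29 without its highest cells. The clusters named connective held only 3259 control and 2032 Smo cKO cells, beside 6395 and 5031 gated ones. A further 3342 and 3197 cells lay in clusters given no class, so the cluster values rest on part of the gated cells. Without shared barcodes 29 of 32 ratios stayed within their main interval and 0 turned. Without the mitochondrial filter 32 of 32 stayed within it. Other settings moved more of them. With classes from clusters 17 of 32 stayed within the interval, 13 moved out of it and 2 turned. After thinning to 1000 UMIs 15 of 32 stayed, 14 moved and 3 turned. With at most 2000 genes 18 of 30 stayed, 10 moved and 2 turned.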

Other observations

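Classes too small for a ratio held some of the highest levels of the binding proteins. Mural cells (35 in control and 22 in Smo cKO), the pericytes and smooth muscle of vessels, had Igfbp7 at 3708 CPM (3492 to 3934) and 5746 CPM (5474 to 6028), above endothelial cells, with a UMI in 100% of them, and Igfbp5 at 330 and 254 CPM. The 12 and 25 cells gated as epithelial or mesothelial had Igfbp5 at 1613 and 1720 CPM and Igfbp6 at 1835 and 1127 CPM, higher than any class with at least 50 cells. Myeloid progenitors had Igfbp4 at 292 and 221 CPM over 26 and 22 cells.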
